A study of Mus musculus with 24 samples.

Results

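The antioxidant enzymes described here are 10 genes chosen by name. A probe was taken as a member where the platform annotation gives it 1 of the symbols Cat, Sod1, Sod2, Gpx1, Gpx4, Gstp1, Gclc, Prdx1, Prdx3 or Txn1, and where several probes share a symbol the brightest stands for the gene. All 10 genes have a probe, of 13840 genes that a probe names by 1 symbol, and only Prdx1 has 2 probes. Their transcripts were measured in brain and in liver of male mice 12 weeks old, with 12 one-colour arrays per tissue and 3 arrays in each of 4 groups. The groups were Acads-/- mice (strain BALB/cByJ) fed HF diet, Acads-/- mice fed LF diet, Acads+/+ mice (strain BALB/cByKZ) fed HF diet and Acads+/+ mice fed LF diet, all kept on chow from weaning and given the experimental diet for 2 days. Acads encodes the short-chain acyl-CoA dehydrogenase of mitochondrial fatty acid oxidation, and BALB/cByJ mice carry a spontaneous deletion in it. The genotypes are 2 separate substrains, so the Acads deletion and any other difference between the substrains cannot be told apart. For the LF liver samples 1 label field names a high-fat diet, and the title and the treatment field, which give LF, were followed.

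The members act in sequence on reactive oxygen species. The superoxide dismutases Sod1, of the cytosol, and Sod2, of the mitochondrial matrix, turn superoxide into hydrogen peroxide, which catalase removes in peroxisomes. The glutathione peroxidases Gpx1 and Gpx4 remove peroxides at the expense of glutathione. The peroxiredoxins also remove peroxides: Prdx1, largely cytosolic, is reduced by thioredoxin (Txn1), and Prdx3, of mitochondria, by the mitochondrial thioredoxin Txn2. Gclc is the catalytic subunit of the enzyme that limits glutathione synthesis, and Gstp1 joins glutathione to reactive compounds. Brain consumes much oxygen and is rich in oxidizable lipids, and liver is known for high levels of catalase and glutathione. Several of the genes are known targets of the transcription factor NRF2, which binds the antioxidant response element.

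Promoter sequences are shown for the 4 members with the largest genotype differences in brain on HF diet (Cat, Gstp1, Sod1 and Sod2) and for Prdx1, the only member that held both motifs searched. They come from RefSeq (GRCm38.p6), hold 250 bases before and 50 bases from the start site on, and run 5′ to 3′ on the strand of the gene. Capitals mark a match, on either strand, to the antioxidant response element core TGACNNNGC or to the AP-1 site TGACTCA. The windows are chr2:103485104-103485403 (minus strand) for Cat, chr16:90220512-90220811 (plus strand) for Sod1, chr17:13007589-13007888 (plus strand) for Sod2, chr19:4037863-4038162 (minus strand) for Gstp1 and chr4:116685349-116685648 (plus strand) for Prdx1.
Cat: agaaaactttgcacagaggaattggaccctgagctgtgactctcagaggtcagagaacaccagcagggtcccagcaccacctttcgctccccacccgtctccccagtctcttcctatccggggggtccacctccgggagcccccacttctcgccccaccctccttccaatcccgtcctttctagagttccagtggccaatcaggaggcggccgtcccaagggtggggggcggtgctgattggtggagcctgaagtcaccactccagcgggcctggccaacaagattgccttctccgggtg
Sod1: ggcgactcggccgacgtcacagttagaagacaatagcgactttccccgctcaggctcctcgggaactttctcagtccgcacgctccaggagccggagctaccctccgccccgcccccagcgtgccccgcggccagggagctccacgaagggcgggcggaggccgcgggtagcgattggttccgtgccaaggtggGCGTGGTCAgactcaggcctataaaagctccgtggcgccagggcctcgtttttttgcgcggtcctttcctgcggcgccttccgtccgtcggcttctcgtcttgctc
Sod2: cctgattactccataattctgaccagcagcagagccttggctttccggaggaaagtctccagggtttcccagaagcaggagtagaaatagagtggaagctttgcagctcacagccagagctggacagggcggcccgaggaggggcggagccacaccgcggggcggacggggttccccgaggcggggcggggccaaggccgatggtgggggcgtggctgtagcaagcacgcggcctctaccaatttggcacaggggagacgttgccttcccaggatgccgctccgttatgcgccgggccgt
Gstp1: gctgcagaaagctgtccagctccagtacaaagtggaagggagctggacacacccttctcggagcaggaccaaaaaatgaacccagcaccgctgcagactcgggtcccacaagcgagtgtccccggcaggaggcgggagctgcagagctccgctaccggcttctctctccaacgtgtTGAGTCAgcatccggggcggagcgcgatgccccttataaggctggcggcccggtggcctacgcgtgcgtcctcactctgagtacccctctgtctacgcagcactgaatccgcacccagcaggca
Prdx1: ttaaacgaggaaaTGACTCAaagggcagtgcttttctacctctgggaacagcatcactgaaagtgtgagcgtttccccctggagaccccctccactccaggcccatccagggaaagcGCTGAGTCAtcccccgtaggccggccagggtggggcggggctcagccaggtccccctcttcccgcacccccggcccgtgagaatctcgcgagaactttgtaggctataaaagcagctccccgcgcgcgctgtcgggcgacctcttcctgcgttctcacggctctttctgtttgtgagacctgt

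Of the 9 member genes with a promoter in the RefSeq table, 2 held the TGACNNNGC core (Sod1 and Prdx1) and 2 held TGACTCA (Gstp1 and Prdx1). The core lies 56 to 48 bases before the start of Sod1 and 133 to 125 bases before that of Prdx1, both times on the opposite strand. TGACTCA lies 74 to 68 bases before the start of Gstp1, on the opposite strand. Prdx1 has it at 237 to 231 bases on the same strand and at 131 to 125 bases on the opposite strand, where it overlaps the core. Among all 32851 promoters of the same length, 12.4% held TGACNNNGC, 5.2% held TGACTCA and 0.947% held both. Neither run of letters was found in the windows of Cat, Sod2, Gpx1, Gpx4, Prdx3 and Txn1. The share of G and C was 62.0% in the Cat window, 66.7% in Sod1, 64.3% in Sod2, 62.7% in Gstp1 and 60.7% in Prdx1, with a median of 52.7% over all promoters. These matches are a description of the windows, since binding was not measured.

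Values below are log2 of the signal after quantile normalization within a tissue, and a log2 fold change is a difference of their means. A gene was called higher or lower where limma gave a p under 0.05 after Benjamini-Hochberg adjustment together with a difference of 1.6-fold or more, over the 16506 probes per tissue above the median of mean signal. The neuron marker Stmn2 read 19.32 to 19.76 in brain and 7.27 to 9.51 in liver, and the hepatocyte marker Alb 18.45 to 20.12 in liver. Summed hepatocyte markers (3 of 4 with a probe) were high in both tissues, at 20.1 to 21.1 in brain and 20.6 to 21.4 in liver. Their list holds Ttr, which is also on the marker list for choroid plexus. The 3 Acads+/+ HF brain arrays stood apart from the other brain arrays. On the first principal component, which held 49.2% of the variance, they lay between -108 and -46.3, and the other groups lay between 18.6 and 33.8. Their log2 deviations were larger for genes of longer genomic span (Spearman's rho 0.278 to 0.427 over 9027 genes), while those of the other brain arrays ran the opposite way (-0.329 to -0.173). Marker lists for other cells moved in the same arrays. The summed red cell markers (3 of 4 with a probe) reached 18.5 to 18.6 in Acads-/- HF, 18.2 to 18.7 in Acads-/- LF, 16.1 to 17.1 in Acads+/+ HF and 18.4 in Acads+/+ LF brain. Summed microglia markers (2 of 4) were 14.1 to 14.3, 13.7 to 14.3, 12.3 to 13.3 and 14.0 to 14.4 in the same order of groups, and oligodendrocyte markers (2 of 4) were 17.3 to 18.0, 17.7 to 17.9, 18.6 to 19.6 and 17.5 to 17.9. Choroid plexus markers (4 of 4) were 21.0 to 21.1, 20.9 to 21.1, 20.1 to 20.8 and 20.9 to 21.1 in that order. Summed neuron markers (3 of 4) overlapped, at 19.3 to 19.8 in Acads+/+ HF and 19.5 to 19.7 in Acads+/+ LF brain. For diet in Acads+/+ mice 2 of 2 microglia, 2 of 3 neuron and 1 of 3 choroid plexus markers were called lower. Higher calls went to 1 of 2 oligodendrocyte and 1 of 3 endothelium markers. Of the 2 red cell markers tested 1 was called higher and 1 lower, and 0 of 2 astrocyte markers were called. The part of the marker shifts and of the first principal component in the results on the antioxidant genes was not tested. Only the trend with span was removed, as an alternative, and that step does not address the marker shifts. In whole tissue, fewer cells of a type and less RNA per cell cannot be told apart. The Acads probe read 8.90 to 10.02 in Acads-/- HF, 7.90 to 9.49 in Acads-/- LF, 11.73 to 11.92 in Acads+/+ HF and 9.87 to 11.27 in Acads+/+ LF brain, without overlap between genotypes on either diet, and in liver its genotypes overlapped. Between genotypes in brain, Acads was called lower on HF diet (-2.39) and was not called on LF diet (-1.87). In liver it was not called on HF diet (-1.68) or on LF diet (-1.28).

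On HF diet, brain of Acads-/- mice had less Cat and Gclc transcript and more Sod1, Sod2 and Gstp1 transcript than brain of Acads+/+ mice. Of the 10 members, 5 were called, 3 higher and 2 lower, where 34.9% of all tested probes were called, 17.5% higher and 17.4% lower. The groups did not overlap for 6 of 10 members, against 51.7% of all probes. Many genes of the array thus differed between these groups, and nothing particular to the antioxidant genes is read from the count. The median log2 fold change was 0.64 over the members and -0.13 over all probes.

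Cat, which encodes catalase (chr2:103453904-103485153, GRCm38.p6), read 11.36, 12.09 and 11.64 in the Acads-/- HF arrays and 13.30, 13.48 and 13.92 in the Acads+/+ HF arrays. The groups were separated by more than the range within either, and the log2 fold change was -1.87 (SE 0.22, limma adjusted p = 0.000208), or 3.66-fold lower. On LF diet the same probe read 12.19, 12.50 and 12.44 in Acads-/- mice and 12.34, 12.50 and 12.17 in Acads+/+ mice, where the ranges overlapped. The Acads-/- HF arrays were thus the lowest of the 12 for Cat and the Acads+/+ HF arrays the highest.

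Sod1 (chr16:90220762-90226333) read 18.59, 18.45 and 18.37 in Acads-/- HF brain and 17.59, 17.45 and 16.82 in Acads+/+ HF brain, a log2 fold change of 1.18 (SE 0.19, limma adjusted p = 0.000798). Its LF values were 18.29, 18.36 and 18.15 in Acads-/- mice and 18.36, 18.23 and 18.27 in Acads+/+ mice. Only the Acads+/+ HF arrays fell outside the narrow band from 18.15 to 18.59 that held the other 9. Sod2 (chr17:13007839-13018119) read 16.85, 16.80 and 16.58 in Acads-/- HF brain, against 16.17, 15.52 and 15.00 in Acads+/+ HF brain. Its log2 fold change between these genotypes was 1.18 (SE 0.24, limma adjusted p = 0.00277). In the LF groups it read 16.74, 16.80 and 16.73 in Acads-/- mice and 16.60, 16.50 and 16.62 in Acads+/+ mice. For the cytosolic and the mitochondrial dismutase alike, the 3 Acads+/+ HF arrays were the lowest of the 12.

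Gstp1 (chr19:4035411-4037912) read 17.68, 17.71 and 17.66 in Acads-/- HF brain and 17.12, 16.48 and 15.69 in Acads+/+ HF brain, a log2 fold change of 1.25 (SE 0.29, limma adjusted p = 0.00603). The Acads-/- HF arrays lay within a few hundredths of each other, while the Acads+/+ HF arrays spread widely. Its close relative Gstp2 can share sequence with it, so the value may hold both transcripts. Gclc (chr9:77754535-77794489) went the other way, at 14.80, 15.08 and 14.49 in Acads-/- HF brain and 15.29, 15.74 and 15.62 in Acads+/+ HF brain. Its log2 fold change was -0.76 (SE 0.18, limma adjusted p = 0.00601). Without Acads+/+ HF array 18018 the Gclc value was -0.66 (adjusted p = 0.0282) and without Acads-/- HF array 17973 it was -0.61 (adjusted p = 0.0191), both under the minimum fold. Gclm, the modifier subunit of the same enzyme, had a log2 fold change of 0.13 (SE 0.16, adjusted p = 0.516).

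The other 5 members were not called for genotype on HF diet. Gpx1 (chr9:108339080-108340342) read 15.74, 15.58 and 16.26 in Acads-/- HF brain and 15.96, 14.93 and 14.31 in Acads+/+ HF brain, with a log2 fold change of 0.80 (95% confidence interval 0.05 to 1.54, limma adjusted p = 0.0745). Gpx4 (chr10:80047166-80056439), which reduces lipid hydroperoxides in membranes, had 0.57 (0.04 to 1.11, adjusted p = 0.0722), and Txn1 had 0.70 (0.11 to 1.29, adjusted p = 0.0502). Array 18017 of the Acads+/+ HF group overlapped the Acads-/- HF values for Gpx1, Gpx4 and Txn1. Prdx1 (chr4:116685599-116700000) read 17.70, 17.65 and 17.67 in Acads-/- HF brain and 17.32, 17.16 and 16.84 in Acads+/+ HF brain by its brightest probe. It had 0.57 (0.25 to 0.89, adjusted p = 0.00916), with no overlap of the groups but under the minimum fold, and its dimmer probe had -0.06 (adjusted p = 0.833), so the 2 probes of this gene disagreed. Prdx3 (chr19:60864066-60874538), the mitochondrial peroxiredoxin, had -0.12 (-0.50 to 0.26, adjusted p = 0.587), and its 12 arrays ran from 16.63 to 17.30. Without Acads+/+ HF array 18017, 9 of 10 members were called, with Gpx1 at 1.24 (adjusted p = 0.00205), Gpx4 at 0.83 (0.00922), Prdx1 at 0.68 (0.00313) and Txn1 at 0.98 (0.00812), and 6912 of 16506 probes were called, in place of 5758. Without Acads+/+ HF array 18022 the values were smaller for Gpx1, at 0.42 (adjusted p = 0.286), and for Gpx4, at 0.26 (0.251). Under median scaling in place of quantile normalization Gpx4 was called at 1.21 (adjusted p = 0.0025) and Prdx1 at 0.96 (0.00212). Without Acads-/- HF array 17956 Txn1 was called at 0.92 (adjusted p = 0.0224).

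**Figure D1:**
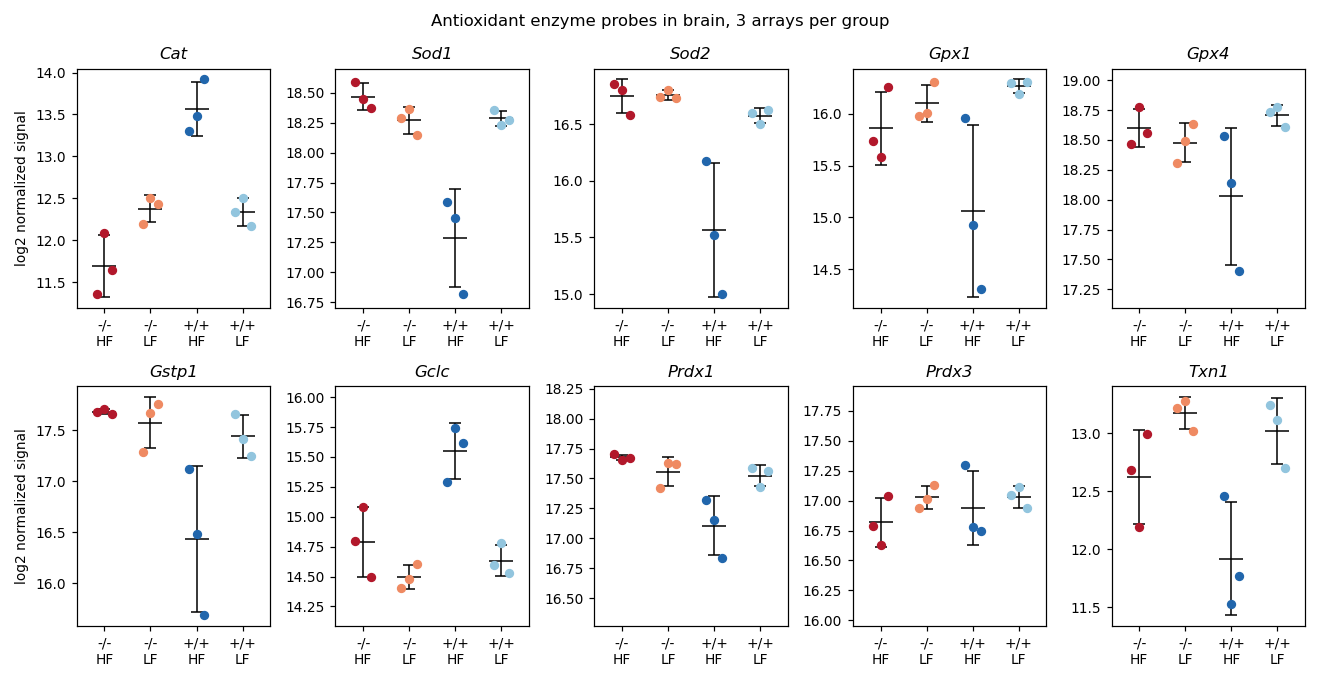
Log2 normalized signal (y axis, a separate range per gene) of the brightest probe of each antioxidant gene in brain, by group (x axis: Acads-/- HF, Acads-/- LF, Acads+/+ HF, Acads+/+ LF). Points are single arrays, the long bar is the mean and the whiskers 1 SD (n = 3); the Acads+/+ HF arrays lie above the other groups for Cat and Gclc and below them for Sod1, Sod2, Gstp1 and Prdx1.

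On LF diet no member passed the test between genotypes in brain. With limma 0 of 10 were called, and 0 of 10 passed at an unadjusted p under 0.05 with the minimum fold, where 0.0182% of all probes were called and 1.97% passed unadjusted. The log2 fold changes of the members ran from -0.23 for Gpx4 (95% confidence interval -0.76 to 0.31) to 0.18 for Sod2 (-0.34 to 0.71). Cat had 0.04 (-0.44 to 0.52) and Sod1 had -0.02 (-0.43 to 0.39), so differences of the size seen on HF diet lay outside these intervals.

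In Acads+/+ mice, HF diet went with higher Cat and Gclc and with lower Sod1, Sod2, Gpx1, Gstp1 and Txn1 in brain. Here 7 of 10 members were called, 2 higher and 5 lower, where 32.9% of all probes were called, 15.5% higher and 17.3% lower. The HF and LF arrays did not overlap for 9 of 10 members, against 55.3% of all probes. This comparison uses the same 3 Acads+/+ HF arrays as the genotype comparison on HF diet, so the 2 sets of values are not independent.

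Cat was at 13.57 ± 0.32 in Acads+/+ HF brain and 12.34 ± 0.17 in Acads+/+ LF brain (SD, n = 3 each), a log2 fold change of 1.23 (SE 0.22, limma adjusted p = 0.00162) between the single-array values given above. Gclc was at 15.55 ± 0.23 on HF and 14.63 ± 0.13 on LF diet (SD, n = 3 each), with LF arrays at 14.59, 14.78 and 14.53, and rose by 0.91 (SE 0.18, limma adjusted p = 0.00266). No HF array of either gene reached down to an LF array.

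Txn1 (chr4:57943373-57956411), the small protein that reduces cytosolic peroxiredoxins such as Prdx1, read 12.46, 11.53 and 11.77 in Acads+/+ HF brain, against 13.24, 13.12 and 12.70 in Acads+/+ LF brain. It fell by 1.10 (SE 0.27, limma adjusted p = 0.00794). Gpx1 fell by 1.20 (SE 0.34, adjusted p = 0.0156), with LF arrays at 16.30, 16.19 and 16.31, Sod1 by 1.00 (SE 0.19, adjusted p = 0.00218) and Sod2 by 1.01 (SE 0.24, adjusted p = 0.00678). Gstp1 fell by 1.01 (SE 0.29, adjusted p = 0.0176), with LF arrays at 17.66, 17.42 and 17.25. In every one of these 5 genes the HF arrays lay below all LF arrays, and the distance between HF arrays was larger than that between LF arrays. The SD of Gpx1 was 0.83 in Acads+/+ HF and 0.07 in Acads+/+ LF brain (n = 3 each), and that of Gstp1 was 0.71 in HF and 0.21 in LF brain.

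Array 18022 was the lowest of all 12 brain arrays for Sod1, Sod2, Gpx1, Gpx4, Gstp1 and Prdx1 and the highest for Cat, while array 18017 was the Acads+/+ HF array closest to the other groups for each of Cat, Gclc, Sod1, Sod2, Gpx1, Gpx4, Gstp1, Prdx1 and Txn1. Without array 18022 the diet call of Gpx1 (-0.82, adjusted p = 0.0563) and of Gstp1 (-0.64, adjusted p = 0.0486, under the minimum fold) was lost. Gpx1 was lost as well without array 18018 (-1.13, adjusted p = 0.0514) and Gstp1 without Acads+/+ LF array 17962 (-0.90, adjusted p = 0.0646). Gpx4 fell by 0.68 (SE 0.24, adjusted p = 0.041) and Prdx1 by 0.42 (SE 0.15, adjusted p = 0.0369), both short of the minimum fold. Gpx4 passed without array 18017, at -0.93 (adjusted p = 0.00533), and had -0.36 (adjusted p = 0.123) without array 18022. Under median scaling Gpx4 was called at -1.37 (adjusted p = 0.00142) and Prdx1 at -0.85 (0.0047). Prdx3 had -0.09 (95% confidence interval -0.47 to 0.29).

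In Acads-/- mice the same change of diet moved no member past the threshold in brain. By limma 0 of 10 were called and 1 of 10, Cat, passed at an unadjusted p under 0.05 with the minimum fold. Of all probes 0% were called and 4.86% passed unadjusted with that fold. Cat had -0.68 (SE 0.22, unadjusted p = 0.0092, adjusted p = 0.436), with all 3 HF arrays below all 3 LF arrays. The groups did not overlap either for Txn1, lower on HF diet, or for Sod1 and the brightest Prdx1 probe, higher on it. The share of all probes without overlap was not computed for this comparison. Txn1 had -0.55 (95% confidence interval -1.14 to 0.04) and Gclc 0.30 (-0.10 to 0.69), and the other members lay between -0.24 for Gpx1 and 0.20 for Sod1. When Acads-/- HF brain was set against Acads+/+ LF brain, 0 of 10 members were called by limma. With the minimum fold 0 of 10 passed unadjusted, where 0.0303% of all probes were called and 3.15% passed unadjusted. In that comparison Cat had -0.64 (-1.12 to -0.17, limma unadjusted p = 0.0128, adjusted p = 0.742), which at 1.56-fold was under the minimum fold. The other members ran from -0.41 for Gpx1 to 0.24 for Gstp1.

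**Figure D2:**
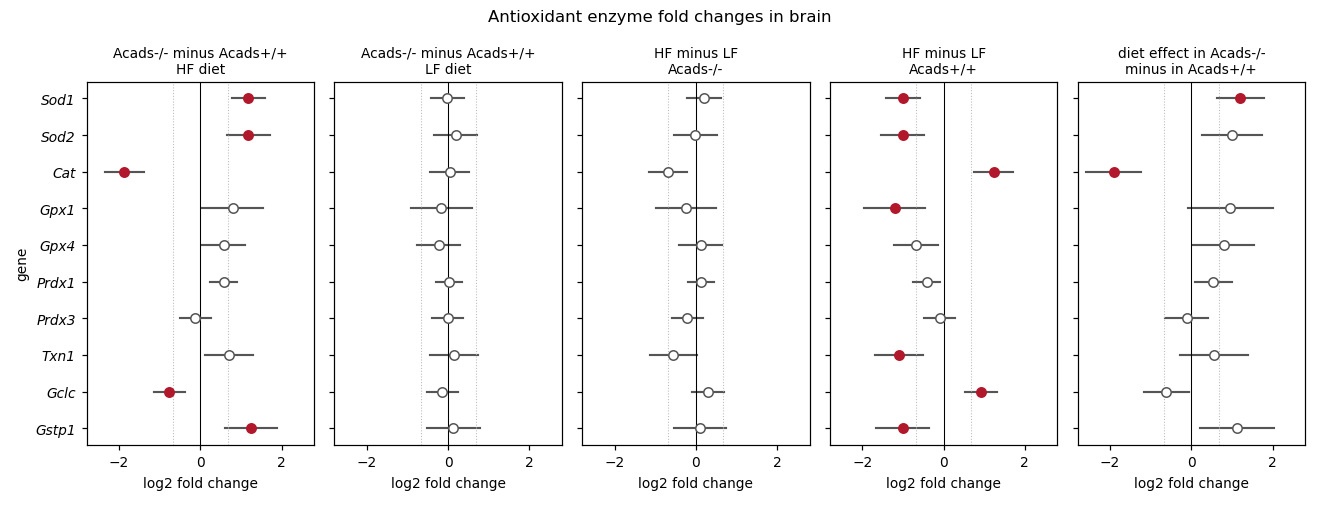
Log2 fold changes (x axis) of the antioxidant genes (y axis) in brain for 5 comparisons, with 95% confidence intervals; filled points passed the adjusted p and the minimum fold, which dotted lines mark. Calls lie in the 3 comparisons that use the Acads+/+ HF arrays, 5 between genotypes on HF diet, 7 between diets in Acads+/+ mice and 2 in the interaction.

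The test of whether diet acted differently in the genotypes called 2 of 10 members in brain, Sod1 higher and Cat lower, where 22.7% of all probes were called, 12.1% higher and 10.6% lower. Cat had a diet effect of -0.68 in Acads-/- and 1.23 in Acads+/+ brain, a difference of -1.91 (SE 0.31, limma adjusted p = 0.00302). For Sod1 the diet effects were 0.20 in Acads-/- and -1.0 in Acads+/+ brain, a difference of 1.20 (SE 0.26, adjusted p = 0.0104). Sod2 had a difference of 1.00 (adjusted p = 0.0524), Gstp1 1.12 (0.0711), Gpx1 0.96 (0.161), Gpx4 0.80 (0.107), Prdx1 0.54 (0.0782), Txn1 0.55 (0.304), Gclc -0.62 (0.0921) and Prdx3 -0.12 (0.749), none past the threshold. Without array 18017, 7 members and 5565 of 16506 probes were called, in place of 2 and 3752, adding Sod2 at 1.30 (adjusted p = 0.00263), Gpx1 at 1.41 (0.00817), Gpx4 at 1.05 (0.0181), Gstp1 at 1.46 (0.0072) and Gclc at -0.75 (0.0345), and without Acads-/- HF array 17956 Gclc had -0.77 (0.0496).

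Fold changes in brain followed the genomic span of a gene, the distance from its first to its last base, over all 9027 genes with a span. Spearman's rho was -0.404 between genotypes on HF diet and 0.419 between diets in Acads+/+ mice, a description across genes that share the same arrays. The 2 called members of opposite sign to the other called ones, Gclc and Cat, have the longest spans of the 10, at 39955 and 31250 bases. Gpx1 has 1263 bases, Gstp1 2502, Sod1 5572, Gpx4 9274, Sod2 10281, Prdx3 10473, Txn1 13039 and Prdx1 14402. In the tenth of genes with the shortest span the median log2 fold change was 0.62 between genotypes on HF diet and -0.63 between diets in Acads+/+ mice, and in the tenth with the longest span it was -0.59 and 0.56.

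After the dependence on span had been taken out array by array, 5 of 10 members were called for genotype on HF diet, against 28.6% of genes. The call was kept by Cat at -1.54 (adjusted p = 0.000415), Sod1 at 0.94 (0.00134), Sod2 at 1.16 (0.00247) and Gstp1 at 0.69 (0.0286), and gained by Txn1 at 0.77 (0.0372). Gclc was lost at -0.39 (adjusted p = 0.0825), and Gpx1 came to -0.03 (0.93). For diet in Acads+/+ mice 4 of 10 were called, against 24.2% of genes, with Cat at 0.90 (0.00583), Sod1 at -0.78 (0.00414), Sod2 at -1.01 (0.00597) and Txn1 at -1.18 (0.00622). Gpx1 at -0.36 (0.282), Gstp1 at -0.46 (0.128) and Gclc at 0.55 (0.0248, under the minimum fold) were not called. The interaction kept Cat at -1.58 (0.00638) and Sod1 at 0.94 (0.0171), against 18.9% of genes called. Cat, Sod1, Sod2 and Txn1 were thus called in both comparisons after this step, and the values of Gpx1 and Gstp1, the genes of shortest span, moved furthest.

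**Figure D3:**
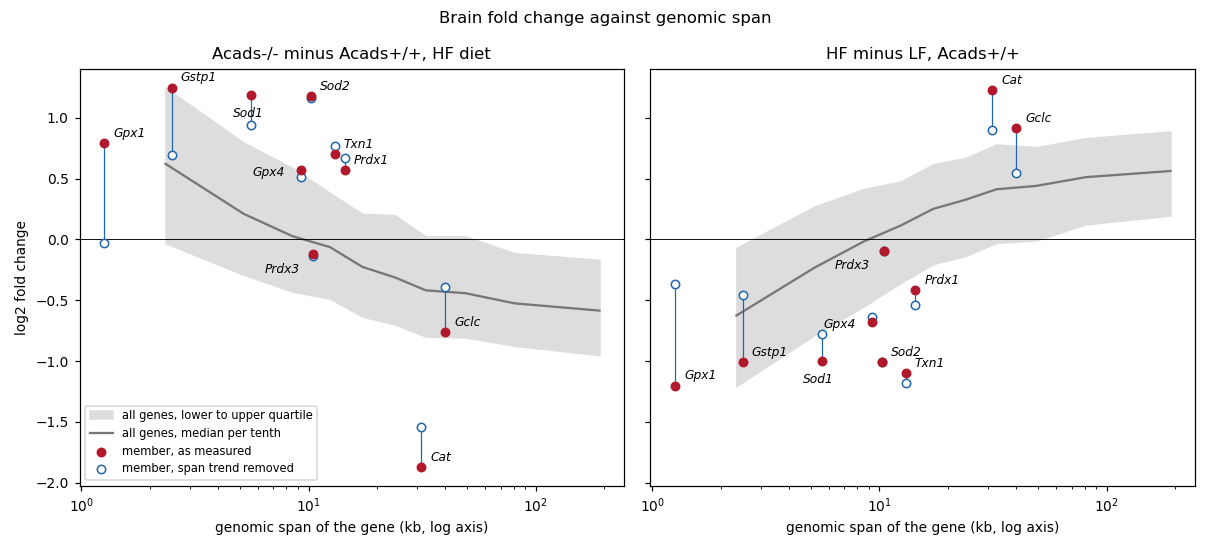
Log2 fold change in brain (y axis) against the genomic span of the gene in kilobases (x axis, log scale) between genotypes on HF diet (left) and between diets in Acads+/+ mice (right). The grey line and band give the median and quartiles of all genes in 10 bins of span, filled points the members as measured and open points after the trend was removed; Gpx1 moved to -0.03 and -0.36, while Sod2 stayed at 1.16 and -1.01.

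The wider redox list, chosen with earlier results of these data known, holds 81 further genes, of which 58 had a probe and 47 were tested in brain. In the genotype comparison on HF diet 14 of 47 were called higher and 8 lower, in the interaction 8 higher and 3 lower, and in the Acads+/+ diet comparison 4 higher and 12 lower, beside the shares of all probes given above. For genotype on HF diet 17.5% of all probes were called higher and 17.4% lower. Of glutathione transferases, which join glutathione to reactive compounds as Gstp1 does, 8 of 12 were called higher there, 0 lower and 4 not called. They included Mgst3 at 1.36 (SE 0.25, adjusted p = 0.00162), Gstt1 at 1.03 (0.00214), Gsta4 at 0.97 (0.00424) and the mitochondrial and peroxisomal Gstk1 at 1.17 (0.00925). For diet in Acads+/+ mice 6 of 12 transferases were called lower, beside 17.3% of all probes. These 6 included Mgst3 at -1.26, Gstk1 at -1.14, Gsta4 at -0.85 and Gstt1 at -0.79. For genes of the wider list, values with the span trend removed were not examined. Both metallothioneins tested, metal-binding proteins that can also quench radicals, were called: Mt3 had 2.33 and Mt1 1.32 between genotypes on HF diet, and -1.97 and -1.39 between diets in Acads+/+ mice. Ccs, the chaperone that loads copper into Sod1, had 1.29 (adjusted p = 0.000744) and -0.89 (0.00564) in these comparisons and 1.30 (0.0103) in the interaction, and extracellular Sod3 had 0.08 and -0.33, neither called.

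Of genes for glutathione synthesis and reduction 1 of 4 was called lower for genotype on HF diet, and of the thioredoxin system 2 of 5, where 17.4% of all probes were called lower. Nothing particular to either list is read from these counts. Gsr, glutathione reductase, had -1.01 (adjusted p = 0.00177) between genotypes on HF diet and 0.78 (0.00725) between diets in Acads+/+ mice, while Gss, glutathione synthetase, had -0.33 and 0.21 and was called in neither. The thioredoxin reductase Txnrd1 had -2.50 (0.0179) and the thioredoxin-binding protein Txnip -1.12 (0.0257) for genotype on HF diet, although the groups overlapped for both. Txnrd2 had -0.34 and Txnrd3 -0.46, neither called. Selenop, which carries selenium to selenoproteins such as Gpx1 and Gpx4, was lower by 0.92 (0.00217) in Acads-/- mice in the same comparison. Sephs2, which makes selenophosphate, was lower by 1.19 (0.00391). Gpx7 and Gpx8, peroxidases of the endoplasmic reticulum, had 1.14 (0.00235) and 1.01 (0.00119) there, and the mitochondrial glutaredoxin Glrx5 had 0.88 (0.00825). Nfe2l2, which encodes NRF2, was named by no probe here. Keap1, which marks NRF2 for degradation, had -0.50 (0.0166, under the minimum fold) and 0.59 for the 2 comparisons, Nfe2l1 -1.61 (0.0194, groups overlapping) and 1.65, and Bach1, which represses the same response element, -1.19 (0.0376) for genotype on HF diet. Pex5, the receptor that brings catalase into peroxisomes, had -1.18 (0.0349) for genotype on HF diet, 1.24 (0.0294, groups overlapping) for diet in Acads+/+ mice and -1.75 (0.0488) in the interaction. On LF diet, for diet in Acads-/- mice and for Acads-/- HF against Acads+/+ LF brain, 0 of 47 genes of the list were called by limma, with 1, 2 and 1 passing unadjusted.

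In liver no member was called in any of 8 comparisons, and 9 of 10 were tested. The Cat probe lay below the signal filter, with arrays from 7.31 to 9.42 around a median of 7.87, against a range of 11.36 to 13.92 for the same probe in brain, where the arrays were normalized apart. Catalase is known as an abundant liver enzyme, and whether this probe reports its transcript in liver was not tested. The fit over all probes gave Cat -0.15 between genotypes on HF diet (95% confidence interval -1.42 to 1.11) and -0.41 for diet in Acads+/+ mice (-1.67 to 0.86). Txn1 passed the filter at a low signal, from 7.72 to 9.90.

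The dismutases varied little in liver after quantile normalization. Sod1 read 19.08, 18.99 and 18.96 in Acads-/- HF, 19.02, 19.11 and 19.02 in Acads-/- LF, 19.27, 19.03 and 18.98 in Acads+/+ HF and 18.96, 19.02 and 19.00 in Acads+/+ LF liver. Its log2 fold change was -0.09 between genotypes on HF diet (95% confidence interval -0.44 to 0.27) and 0.10 for diet in Acads+/+ mice (-0.26 to 0.46). Sod2 ran from 16.77 to 17.41 over the 12 arrays. The intervals of Sod2 for the same comparisons were -0.31 to 0.58 and -0.50 to 0.40. Differences of the size seen in brain for these 2 genes lay outside these intervals, and the difference between the tissues was not tested. Under other processing settings the liver diet value in Acads+/+ mice ran from -0.34 to 0.13 for Sod1 and from -0.48 to -0.05 for Sod2. It was called under none of them, but the lowest Sod1 value lay outside the interval given above. The median residual SD was 0.156 over the tested members and 0.524 for all tested liver probes.

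Gpx1 had the lowest adjusted p of the members in liver for diet in Acads-/- mice. It read 19.60, 19.45 and 19.45 in Acads-/- HF liver, against 19.18, 18.98 and 18.94 in Acads-/- LF liver, without overlap, and had a log2 fold change of 0.46 (SE 0.16, unadjusted p = 0.0161, adjusted p = 0.386). In Acads+/+ liver Gpx1 read 19.20, 19.24 and 19.23 on HF and 19.04, 19.16 and 19.22 on LF diet, with 0.08 (95% confidence interval -0.28 to 0.44). Over both genotypes its diet effect was 0.27 (0.02 to 0.53, adjusted p = 0.342). The interaction was 0.38 (-0.12 to 0.89).

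Txn1 and Prdx3 had lower values on HF diet in Acads+/+ liver that did not pass adjustment. Txn1 read 7.73, 8.09 and 8.54 in Acads+/+ HF and 9.88, 9.34 and 9.25 in Acads+/+ LF liver, a log2 fold change of -1.37 (SE 0.59, unadjusted p = 0.0427, adjusted p = 0.453). In Acads-/- liver its arrays ran from 7.72 to 9.85 on HF and from 7.99 to 9.90 on LF diet. Prdx3 read 16.41, 16.41 and 16.63 in Acads+/+ HF and 16.82, 17.02 and 16.94 in Acads+/+ LF liver, with -0.44 (SE 0.17, unadjusted p = 0.0262, adjusted p = 0.41). Gpx4 had 0.39 for genotype on HF diet (SE 0.17, unadjusted p = 0.0456, adjusted p = 0.729), without overlap between 18.16, 18.07 and 18.08 in Acads-/- HF and 17.64, 17.65 and 17.85 in Acads+/+ HF liver.

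Single arrays set the widest values of Gclc and Gstp1 in liver. Gclc read 14.87 on Acads+/+ HF liver array 18018 and between 16.46 and 17.21 on the other 11 liver arrays. Its diet effect of -0.84 in Acads+/+ mice (95% confidence interval -1.76 to 0.08) was -0.27 (limma adjusted p = 0.79) without that array. Gstp1 read 14.38 on Acads-/- LF array 17866 and between 15.52 and 16.74 on the others, and its difference between genotypes on LF diet was -0.62 with that array and -0.05 without it, called in neither case. Prdx1 stayed between 18.63 and 19.15 by its brightest probe, with -0.20 between genotypes on HF diet (-0.62 to 0.21) and 0.20 for diet in Acads+/+ mice (-0.21 to 0.62), and its dimmer probe had -0.24 and 0.24.

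**Figure D4:**
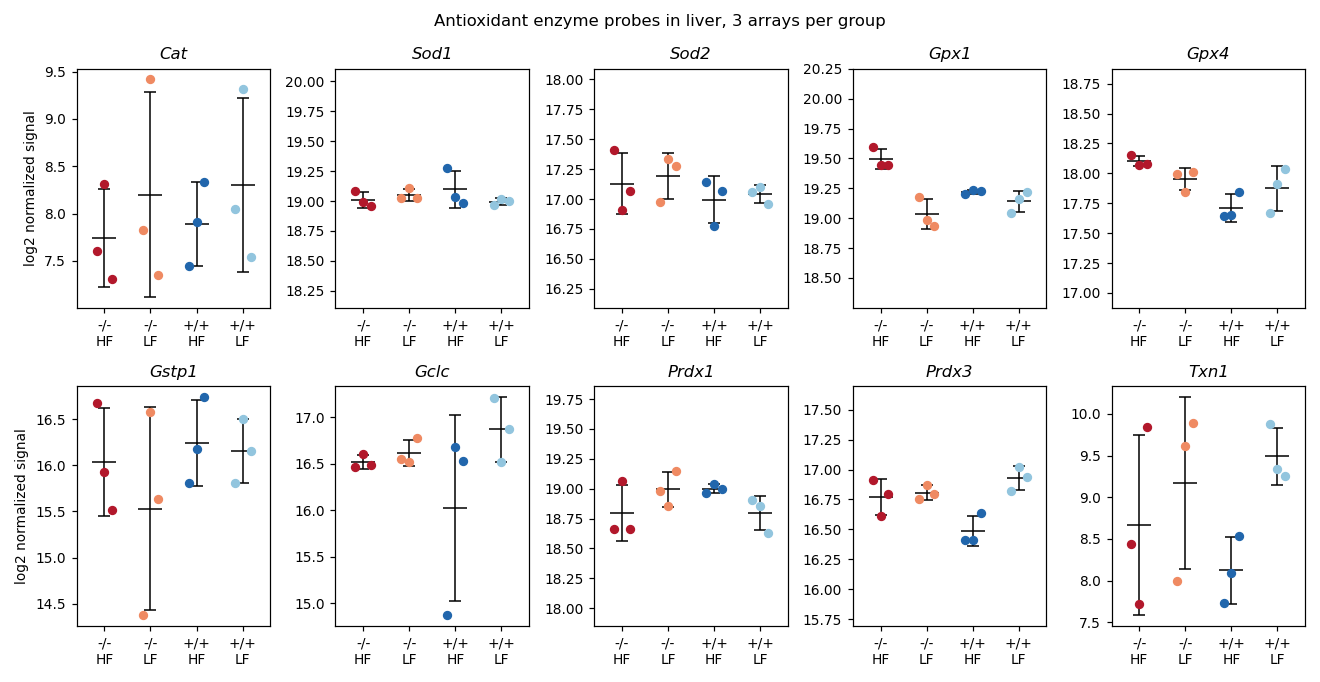
Log2 normalized signal (y axis, a separate range per gene) of the brightest probe of each antioxidant gene in liver, by group (x axis: Acads-/- HF, Acads-/- LF, Acads+/+ HF, Acads+/+ LF). Points are single arrays, the long bar is the mean and the whiskers 1 SD (n = 3); Sod1 stayed between 18.96 and 19.27, and Cat lay below the signal filter.

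The counts in liver were read against the whole array. For genotype on HF diet 0 of 9 tested members were called by limma and 0 passed an unadjusted p under 0.05 with the minimum fold, where 0% of all probes were called and 5.67% passed unadjusted. On LF diet both counts were 0, beside 0% and 3.28% of all probes. For diet in Acads+/+ liver 0 were called and Txn1 passed unadjusted, beside 0% and 8.71%. For diet in Acads-/- liver none was called or passed, beside 0.109% and 7.40%. The interaction gave 0 and 0, beside 0% and 5.13%, and Acads-/- HF against Acads+/+ LF liver gave 0 and 0, beside 0% and 7.49%. Over both genotypes the diet comparison called 0 members, with Txn1 passing unadjusted at -0.93 (limma adjusted p = 0.374), beside 0.473% and 8.03%, and genotype over both diets gave 0 and 0, beside 0.00606% and 2.81%.

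Of the wider redox list 43 genes were tested in liver, and 0 were called by limma in any of the 8 comparisons, with 0 to 5 passing unadjusted in each. The 4 that passed unadjusted for diet in Acads+/+ mice were Fth1, the heavy chain of ferritin, at -0.71 (adjusted p = 0.272), Sod3 at -0.74 (0.287), Gpx7 at -1.28 (0.404) and Sephs2 at -1.23 (0.36). Among the transferases Gstk1 had 0.57 (0.356) and Gstt2 0.53 (0.553), and Mt1 had -0.94 (0.543), Mafg 0.58 (0.426) and Hao1, which makes hydrogen peroxide in peroxisomes, 0.66 (0.499). Gss had 0.52 (0.606), Gclm 0.16 (0.794), Ccs -0.52 (0.786) and Txn2, the mitochondrial thioredoxin, 0.34 (0.664).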

How the data were processed

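Total RNA of each tissue was labelled and hybridized by the authors to one-colour Applied Biosystems arrays of 33012 probes. The intensity values, as deposited, are signals from the analyzer software and are not normalized between arrays. The log2 values deposited by the authors are quantile-normalized within a tissue and served as an alternative. Here quantile normalization was applied to the 12 arrays of each tissue, and signals below the 5th percentile (235 in brain, 142 in liver) were set to that percentile before the log2 transformation. Array medians ran from 976 to 2088 in brain and from 340 to 460 in liver, and 3 arrays per group limit the precision. P-values measure the spread between these arrays.

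Probes in the upper 50% by mean signal were fitted with limma 3.58.1 in R 4.3.3, with a mean per group, and contrasts gave each effect. Probes below the filter come from the same fit over all probes. The fits were tested on simulated data. Probes were named by the platform annotation (14411 with 1 symbol, 247 with several), and genes placed by RefSeq GRCm38.p6; the position of a probe within its gene is not given in the sources used here. Arrays are named by the numbers in the intensity column headers. Most of these numbers occur in both tissues, where they name different arrays. The trend with span was removed per array with a lowess curve over the logarithm of span.

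The members, the gene lists and the tests were chosen with earlier results of these data known. All members are named; of the wider list, up to 4 genes per role with the lowest adjusted p in brain for genotype on HF diet and in liver for diet in Acads+/+ mice are named, together with Keap1. Not every gene that the rule allows is named. Alternatives were another scaling, an offset of 500, other filters, the deposited log2 values, array weights, fits of the compared groups alone, the methods' t-test, other call rules, removal of the span trend, a replicate block, the second-brightest probe and each array left out. The deposited signal-to-noise and flag columns were left out.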

Additional observations from a re-analysis of the deposited data

Results flagged for a closer look

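Cat and Sod1 are listed here because the effect of diet in brain differed between the genotypes by a test of the difference itself. Cat had a diet effect of -0.68 in Acads-/- mice and 1.23 in Acads+/+ mice, a difference of -1.91 on the log2 scale (limma adjusted p = 0.00302). Sod1 had a diet effect of 0.20 in Acads-/- mice and -1.0 in Acads+/+ mice, a difference of 1.20 (limma adjusted p = 0.0104). With each array left out in turn, the difference ran from -2.11 to -1.73 for Cat and from 0.97 to 1.35 for Sod1, and it was called in all 12 fits. Every such fit kept other Acads+/+ HF arrays, and that group stood apart as a whole, so these fits cannot test its shared shift. Among all probes 22.7% were called for this difference.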

How the results depend on the processing

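Members called in brain were counted under each alternative. For genotype on HF diet (5 of 10) the methods' t-test called 5 unadjusted and 0 after Benjamini-Hochberg (4706 and 69 of all 16506 probes, in place of 5758), and leaving out 1 array gave 4 to 9 (4271 to 6912 probes). For diet in Acads+/+ mice (7) that test called 5 unadjusted and 2 after Benjamini-Hochberg (4775 and 1373 probes, in place of 5426), removal of the span trend gave 4, and leaving out 1 array gave 5 to 8 (3830 to 6607 probes). For the interaction (2) median scaling gave 6, array weights 8, an unadjusted p 5, and leaving out 1 array 2 to 7, with 3512, 5941, 5444 and 2388 to 5565 probes called in place of 3752. For diet in Acads-/- mice (0) an unadjusted p and the unadjusted t-test of the methods each gave 1. In liver an unadjusted p gave 1 for diet in Acads+/+ mice and 1 for diet over both genotypes, and the unadjusted t-test of the methods gave 1 for diet in Acads+/+ mice, in place of 0. Counts under the other alternatives stayed within 1.5 times. No called value changed sign under any alternative run. Several values not called did change sign. In brain for genotype on HF diet Gpx1 came to -0.03 without the span trend and Prdx3 to 0.17 under median scaling. The dimmer Prdx1 probe had -0.06 there. For diet in Acads+/+ liver, positive main values reached -0.33 for Gpx1, -0.34 for Sod1, -0.31 for Gstp1 and -0.19 for Prdx1 under alternatives. Further uncalled values changed sign as well.

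The numbers in the labels could be used as a replicate block only on the deposited log2 values. The block fit called 6 members for genotype on HF diet, adding Txn1 (0.70, adjusted p = 0.0498), 7 for diet in Acads+/+ mice and 2 for the interaction. Correlations of deviations between same-numbered arrays ran from -0.178 to 0.216 in brain and from -0.298 to 0.286 in liver. Differently numbered arrays were not set beside them, so whether same-numbered samples share more than a number was not tested. In liver the Cat probe lay below the filter, and for diet in Acads+/+ mice the standard error was 0.59 for Txn1, 0.52 for Gstp1 and 0.41 for Gclc.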
